A study of Mus musculus with 6 samples.

Results

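The 33 genes described here mark or serve endothelial cells, the lining of blood and lymphatic vessels, in mouse dental pulp. They were taken by symbol from a list chosen with earlier results of these data known, and every array feature annotated to one of them was a candidate. All 33 of the 18193 genes named on the array by a single symbol had at least 1 probe set, the group of short probes that reports a transcript. Levels came from 6 Affymetrix arrays, with 3 biological replicates per group by their titles. Mice of the control group were labelled Ring1a-/-;Ring1b flox/flox ;CreERT2 and were injected with corn oil, and mice of the Ring1 deletion group were labelled Ring1a-/-;Ring1b cko/cko ;CreERT2 and were injected with 4-hydroxytamoxifen at 40 mg/kg. Injections were given at postnatal days 9 and 13 and pulp was taken at day 17. Both groups thus lacked Ring1a, a ubiquitin ligase of Polycomb repressive complex 1 like Ring1b (symbol Rnf2), and drug and genotype differed together. The labels do not name the promoter that drives the Cre recombinase, and in which cell types Ring1b was lost was not measured here. The detected Rnf2 probe sets were not lower on the deletion arrays. The stronger had signals from 2233 to 2693 in control and from 2831 to 3550 in deletion. The weaker had signals from 1017 to 1326 in control and from 1507 to 1860 in deletion. It is not known whether they read the part of Rnf2 that Cre removes. These signals therefore cannot show whether Ring1b was lost.

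Endothelial cells are joined by VE-cadherin, claudins and other adhesion proteins, and they grow in response to vascular endothelial growth factor (VEGF) through the receptors Kdr, Flt1 and Flt4. Angiopoietins act on the receptor Tek (Tie2), and ETS family factors drive much of the endothelial programme. Tip cells lead a growing sprout and are marked by apelin, Esm1 and angiopoietin 2. Lymphatic vessels are specified by the homeobox factor Prox1 and carry Flt4 and Lyve1. The pulp is richly vascularised, and its capillaries lie close to the dentin-forming odontoblasts.

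No endothelial gene passed the test between deletion and control. Of the 30 genes that could be tested, 0 rose and 0 fell (limma, Benjamini-Hochberg adjusted over 12250 genes, threshold 0.05), against 2.65% of all genes (1.89% higher and 0.759% lower), and 0 of 30 lies near that background. At an unadjusted p under 0.05 there was 1 member, Prox1, against 15.2% of all genes. The median log2 difference, deletion minus control, was 0.12 over the 30 genes and 0.02 over all genes tested. Means were higher in deletion for 20 members and lower for 10, and 52.5% of all genes had higher means in deletion. In a bulk extract, fewer endothelial cells and less RNA per cell cannot be told apart.

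The precision of these differences varied by gene. The 95% interval lay within a 2-fold change in both directions for 17 of the 30 members, against 68.6% of all genes, so for the other 13 a change of 2-fold was within the interval. Members had a median standard error of 0.28 on the log2 scale, against 0.23 for all genes, while the median size of the difference was 0.23 for both. Leaving out a single array moved the log2 difference by more than 1.5 times in 29 of the 30 members, Prox1 being the exception, and turned its sign in 11. The arrays did not overlap between groups for 3 members, Prox1, Rasip1 and Cldn5, all higher in deletion. Such separation was seen in 20.8% of all genes, 12.2% with deletion higher and 8.64% with deletion lower, so 3 of 30 was not above the background.

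**Figure D1:**
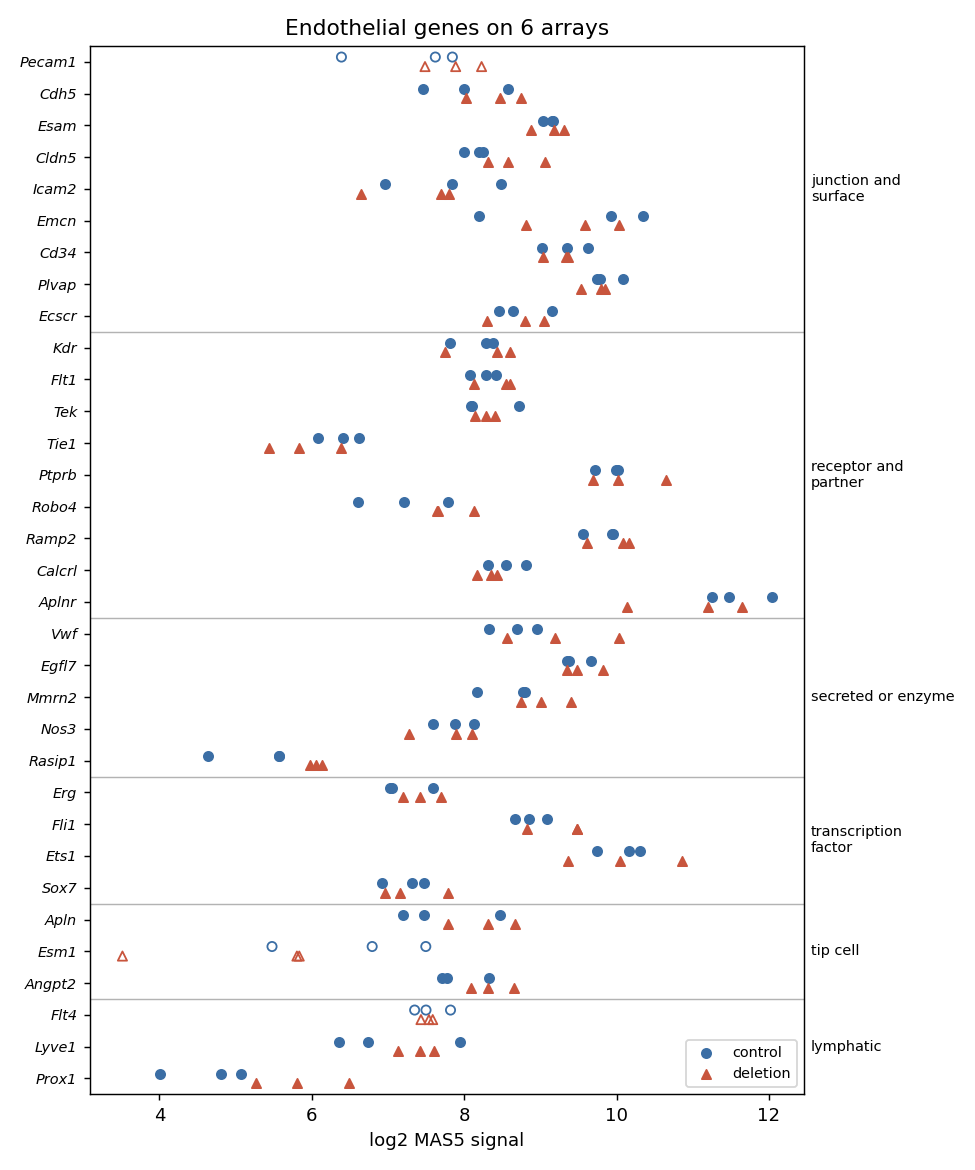
Log2 MAS5 signal (x axis) of each endothelial gene on the 3 control arrays (circles) and the 3 deletion arrays (triangles), grouped by role; open symbols are the 3 genes that were not tested, shown by their probe set with the highest mean. Control and deletion symbols interleave in most rows, and among tested genes they separate in Cldn5, Rasip1 and Prox1. The Flt4 probe set shown was Present on no array. Signals are not comparable between rows.

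Most of these transcripts were detected in both groups. Per array, 53.8% to 57.9% of the 45101 probe sets were called Present, and all 8 odontoblast and all 10 pulp fibroblast markers were Present on every array. These calls (Present, Marginal or Absent) are made by MAS5, the array software. All 33 genes had a Present call on at least 1 array. For 22 genes a probe set was Present on all 6 arrays. A gene was tested where a probe set was Present on at least 3 of 6 arrays, which left out Pecam1, Esm1 and Flt4. Of the tested genes, 21 were Present on all 6 arrays by the probe set used. Prox1 was detected on each deletion array but in no control, and so entered the test through the group where it was higher.

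Among junction and surface proteins, 8 of 9 were tested, 0 passed (0 also at an unadjusted p under 0.05 in limma), and the median log2 difference was -0.02. Pecam1, the adhesion molecule CD31, had a single probe set, Present on 1 control and 1 deletion array. Its signals were 83.8, 230.0 and 197 on control replicates 1, 2 and 3 and 179, 237 and 300.0 on deletion replicates 1, 2 and 3. The deletion values lay within or above the control range, and no test was made. Cdh5, VE-cadherin, the defining adherens junction protein of endothelium, was Present on all 6 arrays. Its signals were 176, 381 and 255 in control and 356, 428 and 260 in deletion, and the groups overlapped. The log2 difference was 0.40 ± 0.32 (SE, 3 arrays per group; limma adjusted p = 0.64), with a 95% interval from 0.805-fold to 2.17-fold.

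Cldn5, a tight junction claudin of endothelium, had the highest difference of the junction genes. Signals of 257, 292 and 304 in control stood against 533, 382 and 318 in deletion, so the lowest deletion array was just above the highest control array. The difference was 0.50 ± 0.24 on the log2 scale (SE; limma adjusted p = 0.37), with 1.05 between the arrays numbered 1 and 0.07 between those numbered 3. Icam2, an adhesion ligand for leukocytes, had the lowest, with signals of 124, 357 and 229 in control and 99.8, 207 and 224 in deletion. Its difference was -0.38 ± 0.44 (SE; limma adjusted p = 0.78), smaller than its spread within either group. Esam, a junction adhesion molecule, differed by 0.01 ± 0.19 (SE), and its interval, from 0.75-fold to 1.35-fold, was among the narrow ones. Plvap, which forms the diaphragms of fenestrae, differed by -0.14 ± 0.18, the sialomucin Cd34 by -0.09 ± 0.21 and Ecscr, a surface regulator of chemotaxis, by -0.03 ± 0.27 (log2, SE).

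Emcn, the sialomucin endomucin of capillaries and veins, had the widest spread within control of the tested members. Its signals were 294, 1305 and 975 in control and 448, 772 and 1044 in deletion, so the replicate 1 array was lowest in both groups. The highest control array was 4.44 times the lowest, and the groups covered each other almost entirely (log2 difference -0.02 ± 0.52, SE). Control arrays differed by more than 2-fold in 7 of the 30 members, against 12.9% of all genes. In deletion this held for 6 members, against 16.1% of all genes.

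The receptors for VEGF and angiopoietin had small differences. Kdr (VEGFR2), the main signalling receptor for VEGF, had signals of 226, 333 and 313 in control and 346, 215 and 387 in deletion. Deletion replicate 2 was the lowest of all 6 arrays and deletion replicate 3 the highest, so the groups overlapped fully. The log2 difference was 0.10 ± 0.28 (SE; limma adjusted p = 0.93), with an interval from 0.69-fold to 1.66-fold. Flt1 (VEGFR1), which binds VEGF with little signalling, differed by 0.17 ± 0.22, but its 3 kept probe sets disagreed in sign, and their mean gave -0.0514. Tek, the angiopoietin receptor, differed by -0.02 ± 0.24, with an interval from 0.68-fold to 1.43-fold.

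Tie1, an orphan relative of Tek that modulates it, was Present on 3 control arrays and on 1 deletion array. Its signals were 68.0, 98.0 and 84.9 in control and 56.8, 43.4 and 83.2 in deletion. Deletion replicates 1 and 2 lay below every control array and deletion replicate 3 among them (log2 difference -0.49 ± 0.38, SE; limma adjusted p = 0.64). Ptprb (VE-PTP), a phosphatase that restrains Tek and VE-cadherin, differed by 0.21 ± 0.25, and without deletion replicate 1 by -0.0579. Robo4, an endothelial guidance receptor that stabilises vessels, had signals of 97.5, 222 and 148 in control and 200.4, 201 and 279 in deletion. Control replicate 2 lay among the deletion values, and the difference was 0.60 ± 0.33 (log2, SE; limma adjusted p = 0.46).

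Calcrl and Ramp2 together form a receptor for adrenomedullin. Calcrl differed by -0.24 ± 0.22 and Ramp2 by 0.13 ± 0.21 (log2, SE), and neither passed. A further pair of Ramp2 probe sets also matches Vps25 and was not used. Aplnr, the receptor for apelin, had the lowest log2 difference of all tested members, -0.59 ± 0.36 (SE; limma adjusted p = 0.52). Its signals were 2836, 4193 and 2432 in control and 3194, 2346 and 1124 in deletion. Deletion replicate 1 stood inside the control range and deletion replicate 3 well below it. The spread of 2.84-fold within deletion exceeded the difference between groups.

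Of 5 secreted or intracellular proteins of the vessel wall, 4 had higher means in deletion and 0 passed (0 also at an unadjusted p under 0.05 in limma). Vwf, the clotting glycoprotein stored by endothelial cells and platelets, had signals of 497, 413 and 321 in control and 1045, 585 and 378 in deletion. Deletion replicate 3 lay inside the control range, and deletion replicate 1 stood above all other arrays. The log2 difference was 0.60 ± 0.35 (SE; limma adjusted p = 0.49), and each deletion array exceeded the control array of the same number, by 1.07, 0.50 and 0.24 on the log2 scale. Rasip1, a Ras-interacting protein needed for vessel lumens, was Present on 2 control arrays and on 1 deletion array. Its signals of 47.3, 25.0 and 47.6 in control and 66.6, 70.4 and 63.1 in deletion did not overlap, with the control array at 25.0 furthest from the rest (0.80 ± 0.43 on the log2 scale, SE; limma adjusted p = 0.44). Mmrn2, a matrix glycoprotein of vessels, differed by 0.47 ± 0.25, while the mean of its 4 kept probe sets gave 0.22. Egfl7, a secreted guide of sprouting, differed by 0.09 ± 0.20. Its 4 kept probe sets disagreed in sign, from -0.02 to 0.57, and their mean gave 0.24. Nos3, the endothelial nitric oxide synthase, differed by -0.11 ± 0.28.

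The transcription factors of the list all had differences under 0.40 on the log2 scale by the probe set used. Erg and Fli1, ETS factors that maintain endothelial identity, differed by 0.21 ± 0.28 and 0.39 ± 0.24 (SE). The other kept probe set of Fli1 gave 0.76 (limma adjusted p = 0.38 with every kept probe set on its own). Sox7, a SoxF factor of vascular development, differed by 0.06 ± 0.31. Ets1, which is also made by lymphocytes and mesenchymal cells, differed by 0.02 ± 0.34. Its deletion signals ran from 657 to 1863 around control signals of 857 to 1272. The largest of them, on deletion replicate 1, decided the sign, and without that array the difference was -0.37. None of the 4 passed (limma adjusted p from 0.51 to 0.99), and none had an unadjusted p under 0.05.

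**Figure D2:**
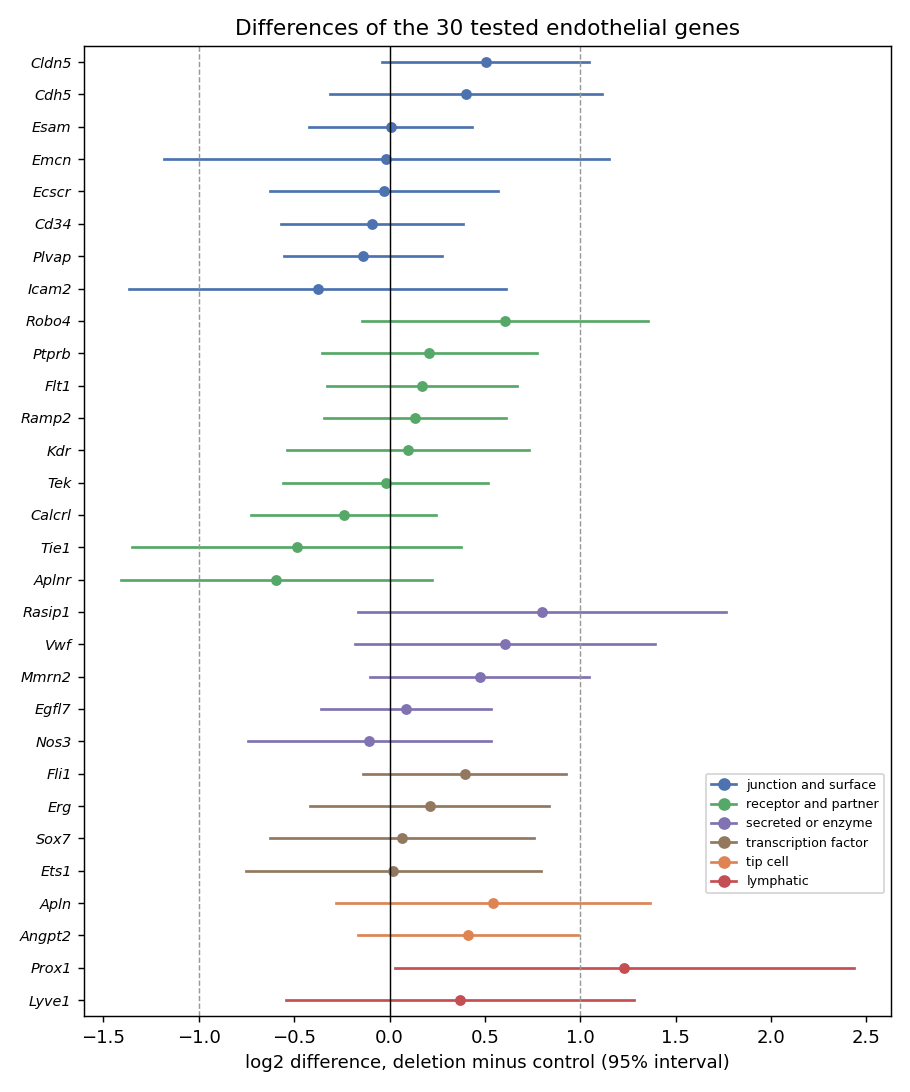
Log2 difference, deletion minus control (x axis), of the 30 tested endothelial genes with its 95% limma interval, coloured by role; dashed lines mark a 2-fold change. All intervals except that of Prox1 include 0, and Prox1 did not pass after adjustment over all genes.

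Of the 3 tip cell genes 2 were tested, and neither passed. Apln, encoding the peptide apelin, had signals of 147, 355 and 178 in control and 221, 408 and 318 in deletion. Replicate 2 was highest in both groups, and the deletion array was above the control array in all 3 numbered pairs (log2 difference 0.54 ± 0.37, SE; limma adjusted p = 0.57). Angpt2, the antagonist of angiopoietin 1 that loosens vessels, was Present on 1 control and 2 deletion arrays, with signals of 320, 220 and 209 in control and 318, 401 and 272 in deletion. Control replicate 1 lay among the deletion values (0.41 ± 0.26 on the log2 scale, SE; limma adjusted p = 0.53). Esm1, a proteoglycan secreted by tip cells, was Present on 2 control arrays and on no deletion array. Its signals were 44.6, 181 and 111 in control and 55.9, 57.1 and 11.4 in deletion, so control replicate 1 lay among the deletion values. With deletion signals held at or above the lowest of probe sets Present on all 3 deletion arrays, the control mean was 2.62-fold that of deletion. This fold is given as at least, with no allowance for its error. Esm1 was not tested. The 2 tested tip cell genes were thus higher on average in deletion and the untested one lower.

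Each of the 3 lymphatic genes was detected on some arrays only. By 1 of its 3 probe sets Prox1 had a Present call on every deletion array and on none of the controls, and the other 2 had no Present call. Its signals were 28.0, 33.8 and 16.05 in control and 38.7, 56.2 and 90.1 in deletion, so the groups did not overlap although deletion replicate 1 was close to control. The log2 difference of 1.23 ± 0.53 (SE) was the largest of the tested members and did not pass (limma adjusted p = 0.32); all control signals were above the floor, and the fold of 2.35 is given as at least, with no allowance for its error. By numbered pairs the difference was 0.47, 0.74 and 2.49, most of it in replicate 3. Lyve1, a hyaluronan receptor of lymphatic endothelium that some macrophages also carry, had signals of 246, 107 and 81.9 in control and 194, 171 and 140 in deletion. Control replicate 1 was the highest of all 6 arrays (0.37 ± 0.41 on the log2 scale, SE; limma adjusted p = 0.76), and the mean over both tested Lyve1 probe sets had the opposite sign, -0.21. Flt4 (VEGFR3) was Present on 1 control array by 1 of its 2 probe sets and was not tested. That probe set gave 53.8, 66.1 and 68.9 in control and 56.7, 100.2 and 90.2 in deletion.

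By class, the median log2 difference was 0.07 over 26 pan-endothelial genes, 0.48 over 2 tip cell genes and 0.80 over 2 lymphatic genes, against 0.02 over all genes tested. The medians of the small classes rest on 2 genes each, one of the lymphatic genes having entered through deletion. No class held a call, and 0 pan-endothelial, 0 tip cell and 1 lymphatic gene had an unadjusted p under 0.05 in limma. Without control replicate 3 the lymphatic median was 0.48, and with every kept probe set on its own it was 0.37. Without deletion replicate 2 the tip cell median was 0.30. Differences between the classes were not tested.

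**Figure D3:**
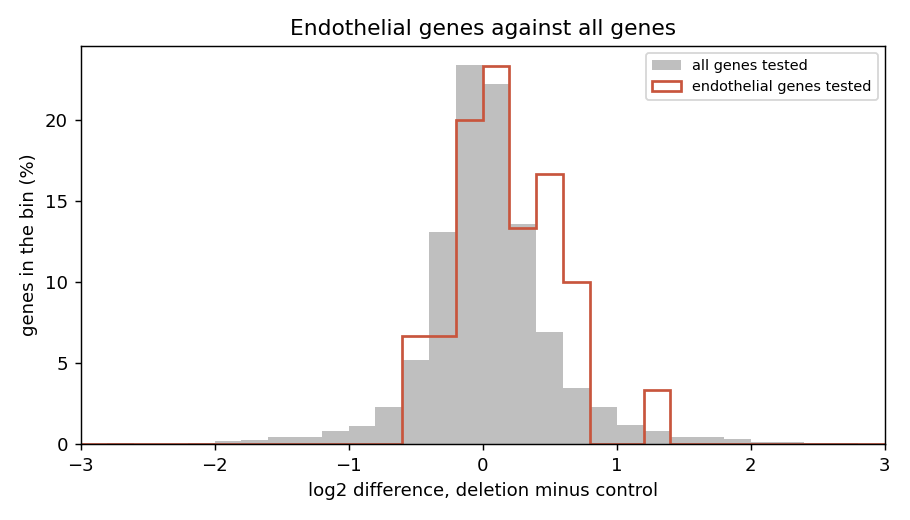
Share of genes (y axis, percent) by log2 difference, deletion minus control (x axis, bins of 0.2, shown from -3 to 3), for all 12250 genes tested (grey) and the 30 tested endothelial genes (outline). The endothelial genes lie between -0.59 and 1.23, around medians of 0.12 for them and 0.02 for all genes.

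The stretch of 250 bases before the transcription start is shown for Prox1 and Esm1, the members with the highest and lowest difference of detected probe sets, for the tip cell gene Apln and for Tie1. The RefSeq sequences (GRCm38.p6) are those at chr1:190170828-190171077 on the minus strand for Prox1 (the first of its 2 listed starts), chr13:113209409-113209658 on the plus strand for Esm1, chrX:48034854-48035103 on the minus strand for Apln and chr4:118489850-118490099 on the minus strand for Tie1. Capitals mark GGAAG, the core bound by ETS factors, or its reverse complement CTTCC.
Prox1: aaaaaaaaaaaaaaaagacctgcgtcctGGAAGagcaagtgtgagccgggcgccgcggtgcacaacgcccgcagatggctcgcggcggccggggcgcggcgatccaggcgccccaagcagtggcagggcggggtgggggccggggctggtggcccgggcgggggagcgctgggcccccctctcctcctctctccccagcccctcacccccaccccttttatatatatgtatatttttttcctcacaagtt
Esm1: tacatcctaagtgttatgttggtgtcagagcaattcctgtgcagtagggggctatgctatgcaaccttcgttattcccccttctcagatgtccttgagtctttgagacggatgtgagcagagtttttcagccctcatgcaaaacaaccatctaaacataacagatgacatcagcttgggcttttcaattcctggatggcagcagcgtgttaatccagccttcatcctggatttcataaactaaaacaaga
Apln: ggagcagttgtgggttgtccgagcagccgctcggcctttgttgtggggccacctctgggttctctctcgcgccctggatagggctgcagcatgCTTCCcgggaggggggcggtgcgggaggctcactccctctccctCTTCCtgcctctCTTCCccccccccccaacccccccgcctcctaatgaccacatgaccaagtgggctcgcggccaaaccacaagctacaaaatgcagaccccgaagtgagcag
Tie1: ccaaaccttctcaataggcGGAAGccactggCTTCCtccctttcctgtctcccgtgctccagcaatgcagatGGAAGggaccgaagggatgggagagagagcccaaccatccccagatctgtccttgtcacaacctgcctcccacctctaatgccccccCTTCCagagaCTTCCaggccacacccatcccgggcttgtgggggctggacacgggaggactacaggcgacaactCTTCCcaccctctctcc
Tie1 held 6 copies of the core, Apln 3, Prox1 1 and Esm1 0. The Tie1 count was the highest of the endothelial windows. Counts of 5 or more occurred in 4.76% of endothelial windows and in 0.965% of all 32851 windows. Windows were listed for 16 of the 33 genes, 21 windows in all, of which 76.2% held the core on either strand, against 64.1% of all windows. CG dinucleotides are dense in the promoters that Polycomb complexes often occupy. They numbered 20 for Prox1, 12 for Apln, 6 for Tie1 and 3 for Esm1. The window of the second listed Prox1 start had 11 CG dinucleotides and 3 copies of the core. The median was 6 for the endothelial windows and 6 for all windows. These counts are a description of the letters and show no binding.

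Control arrays differed more among themselves in endothelial signal than the 2 groups did on average. For each array the median deviation of the 26 pan-endothelial genes from their own means over 6 arrays was taken, on the log2 scale. It was -0.24, 0.24 and -0.08 on control replicates 1, 2 and 3 (mean -0.03) and 0.17, 0.12 and 0.02 on deletion replicates 1, 2 and 3 (mean 0.10). Control replicate 2 was thus above every deletion array, and control replicates 1 and 3 were below every one. Control replicate 2 had the highest control signal in 21 of the 30 members, against 24.0% of all genes, and control replicate 1 the lowest in 16, against 39.1% of all genes. Without control replicate 2 the pan-endothelial median difference was 0.19 in place of 0.07, and no member passed.

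Markers of cells that lie near or inside vessels were measured beside the members. The comparison was also fitted with the replicate number as a block, which called 10.6% of all genes, 6.44% higher and 4.19% lower. That pairing of arrays was taken from these same values and not from a label, so calls with the block rest on it. The same median for pericytes and smooth muscle (9 of 13 tested, 0 called in limma and 5 with an unadjusted p under 0.05) ran from -0.22 to 0.06 in control and from -0.19 to 0.58 in deletion. With the block 2 of the 9 rose, Cspg4 and Pdgfrb of pericytes, and 2 fell, Acta2 and Tagln of smooth muscle (limma adjusted p from 0.00145 to 0.032). Means were higher in deletion for 5 of the 9 and lower for 4. The lower ones included Kcnj8 (-0.45) and Abcc9 (-0.07 on the log2 scale), also pericyte markers, so the list did not move as 1 cell type. For macrophages and leukocytes (all 14 tested, 0 called in limma and 4 with an unadjusted p under 0.05) the median by array ran from -0.19 to -0.0043 in control and from -0.05 to 0.47 in deletion. Deletion replicate 1 was highest in both lists. With the block 3 of the 14 rose, Mrc1, Cd163 and C1qb (limma adjusted p = 0.00238, 0.0276 and 0.0379), and 0 fell. Means were higher in deletion for 7 of the 14 and lower for 7, with a median log2 difference of 0.01. Cx3cr1 was lower on all deletion arrays than on all control arrays (-0.42 on the log2 scale). Deletion replicate 1 was the array on which Vwf, Cldn5, Ptprb and Ets1 were highest, and the part of other cells in those values was not tested. Dental epithelium, whose transcripts were abundant in the pulp extracts, ran from -0.24 to 0.39 in control and from -1.14 to 0.99 in deletion. Of its 11 tested genes 0 were called in limma (4 with an unadjusted p under 0.05), and 1 rose and 3 fell with the block. Of 3 tested platelet genes none was called (1 with an unadjusted p under 0.05), and Pf4, platelet factor 4, which macrophages can also make, differed by 0.75 ± 0.23 (limma adjusted p = 0.145, and 0.033 with the block). The other 2 had lower means in deletion, Itga2b by -0.27 and Gp1bb by -0.05 on the log2 scale, and the median of the 3 was -0.05.

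**Figure D4:**
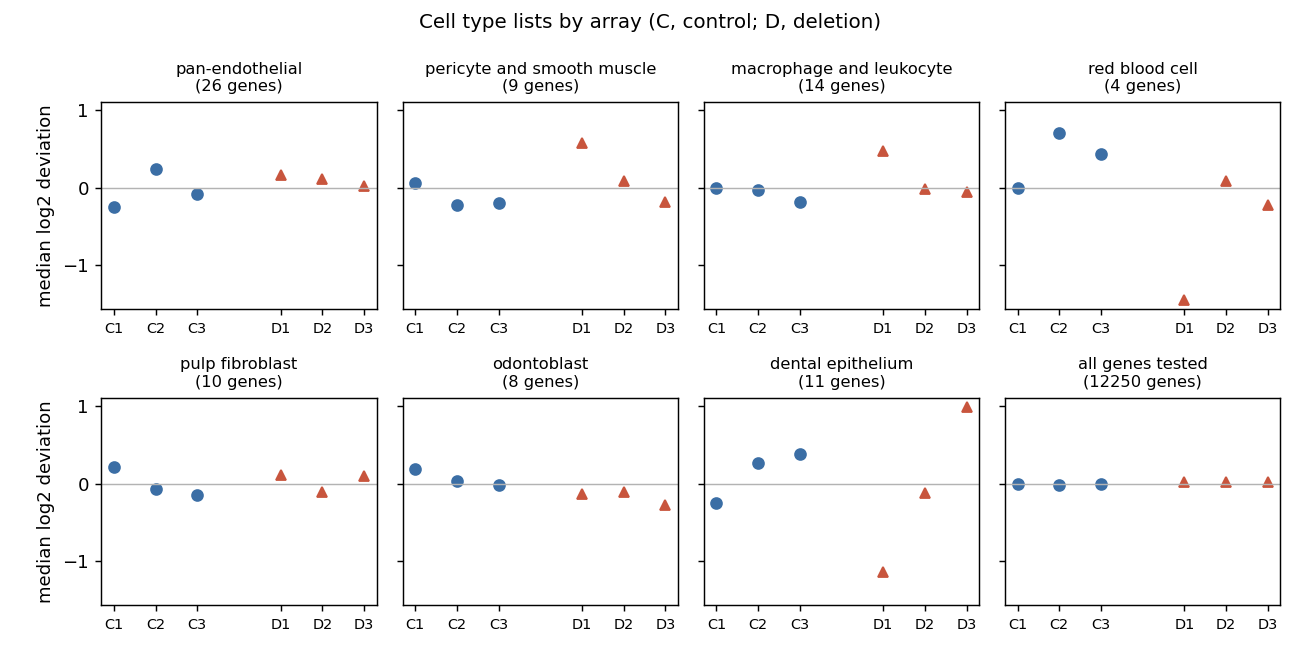
Median log2 deviation of each list's tested genes from their own means over 6 arrays (y axis), on control (C1 to C3, circles) and deletion arrays (D1 to D3, triangles). Pan-endothelial medians overlap between the groups, from -0.24 to 0.24 in control and from 0.02 to 0.17 in deletion.

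A red blood cell transcript fell, while no endothelial gene passed. Hbb-b2, an adult beta globin whose probe set may also read its near-identical neighbours, was detected in every control and on none of the deletion arrays. It thus entered the test through the group where it was higher, and was not tested where Present calls on all 6 arrays were required. Its signals were 479, 390 and 287 in control and 7.59, 52.8 and 31.6 in deletion, at least 14.5-fold lower (limma adjusted p = 0.0132, and 0.0755 without control replicate 2). Hba-a2, an alpha globin, did not follow on every array, with 185, 366 and 337 in control and 37.2, 326 and 307 in deletion (limma adjusted p = 0.67). Of 13 red cell names 4 genes were tested, and 1 was called, against 0.759% of all genes called lower. All 4 had lower means in deletion, while 52.5% of all genes had higher means. Of these, Car2 differed by only -0.13 ± 0.20 (log2, SE), and Epb42 had low signals, from 10.4 to 26.1. Tfrc, the transferrin receptor, listed here as a barrier gene and also made by red cell precursors and dividing cells, fell 1.52 ± 0.26 on the log2 scale (SE; limma adjusted p = 0.0203), from signals of 3090 to 4122 in control to 796 to 1631 in deletion. It was not called without an intensity trend (limma adjusted p = 0.0501), without control replicate 2 (adjusted p = 0.108) or without deletion replicate 2 (adjusted p = 0.0584). The mean of its tested probe sets gave -1.005 (limma adjusted p = 0.152).

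None of the tested ligands that act on vessels passed. Of 17 vessel growth ligands 12 were tested, and 11 had higher means, against 52.5% of all genes. In limma 0 rose or fell, with 5 at an unadjusted p under 0.05, against 15.2% of all genes. With the replicate number as a block 3 rose, against 6.44% of all genes, and none fell. The list's median log2 difference was 0.53, against 0.12 for the endothelial members and 0.02 for all genes. This list, like the others here, was chosen with earlier results of these data known, so its counts and median are a description only. Angpt1, the activating ligand of Tek made by perivascular and mesenchymal cells, had signals of 887, 712 and 609 in control and 1618, 1684 and 1083 in deletion. All deletion arrays were above all control arrays (log2 difference 0.98 ± 0.23, SE; limma adjusted p = 0.0618, and 0.00333 with the block). Adm, adrenomedullin, the ligand of Calcrl with Ramp2, was detected on every deletion array but in no control, and was at least 2.86-fold higher (limma adjusted p = 0.125). Sema3a, a repellent of axons and vessels, differed by 0.69 ± 0.22, and Cxcl12, a chemokine of stromal cells, by 1.37 ± 0.45 (log2, SE), with control replicate 1 overlapping deletion. The 3 that rose with the block were Angpt1, Sema3a and Cxcl12.

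Of 20 tested vessel receptors and co-receptors 1 rose, against 1.89% of all genes, none fell, and 17 had higher means, against 52.5% of all genes. Nrp2, a co-receptor for VEGF-C and semaphorins found on veins, lymphatics and mesenchymal cells, had signals of 661, 487 and 647 in control and 1229, 1340 and 1866 in deletion. It rose 2.45-fold (limma adjusted p = 0.0182), and did not pass without control replicate 2 (0.0985) or without deletion replicate 3 (0.0674). Acvrl1 and Eng, the endothelial receptor and co-receptor for BMP9, differed by 0.95 ± 0.25 and 0.74 ± 0.26 on the log2 scale (SE; limma adjusted p = 0.0906 and 0.194), and Notch1 by 0.56 ± 0.20. With the replicate number as a block 4 of the 20 rose, Nrp2, Acvrl1, Eng and Notch1, against 6.44% of all genes.

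Of 23 tested regulators of arterial, venous and lymphatic fate 2 rose, against 1.89% of all genes, and none fell, while 13 had higher and 10 lower means. With the block 4 rose and 4 fell, against 6.44% and 4.19% of all genes. Nr2f2 (COUP-TFII), a nuclear receptor of venous fate that mesenchyme also makes, had signals of 515, 809 and 778 in control and 1313, 1660 and 2495 in deletion, a rise of 2.56-fold (limma adjusted p = 0.0354). Gata2, a zinc finger factor of blood and endothelium, had 270, 256 and 291 in control and 596, 453 and 529 in deletion, a rise of 1.92-fold (limma adjusted p = 0.0437). Neither call was stable: Gata2 did not pass without any single one of the 6 arrays, and Nr2f2 passed without deletion replicate 1 but not without any other single array. With single arrays left out the adjusted p reached 0.191 for Gata2 and 0.105 for Nr2f2, in both cases with deletion higher. Gata2 also missed the threshold with quantile normalization (0.0647), arrays centred on Present probe sets (0.058), no detection filter (0.0704), no intensity trend (0.0512) and without both replicate 1 arrays (0.0829). Nr2f2 also missed it with the mean of its probe sets (0.0568) and with no intensity trend (0.0722). Foxc2, a forkhead factor of lymphatic valves and mesenchyme, differed by 1.07 ± 0.27 (limma adjusted p = 0.0765), and Pdpn, podoplanin, which marks lymphatics and also odontoblast and fibroblast lineages, by -0.74 ± 0.19 (limma adjusted p = 0.0787).

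Of 27 tested basement membrane and barrier genes none rose and 1, Tfrc, fell, against 0.759% of all genes, while 21 had higher and 6 lower means. With the block 6 rose and 3 fell, against 6.44% and 4.19% of all genes. Nid1 and Col4a1, components of vascular and other basement membranes, differed by 0.93 ± 0.22 and 0.77 ± 0.20 on the log2 scale (SE; limma adjusted p = 0.0662 and 0.0868). Slc2a1, a glucose transporter of barrier endothelium and many other cells, differed by 0.96 ± 0.32 (limma adjusted p = 0.177). Transcripts of Nrp2, Nr2f2 and Gata2 come from several cell types, and which cells held them was not measured.

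**Figure D5:**
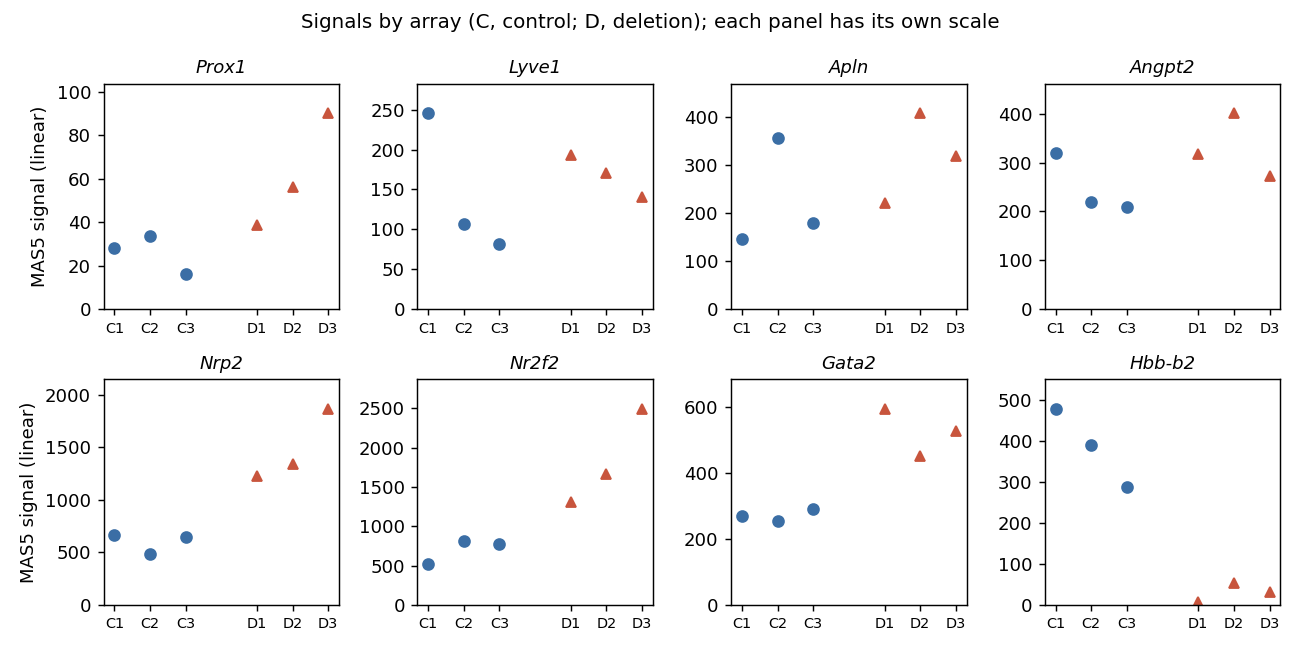
MAS5 signal on a linear scale (y axis, a scale per panel, each from 0) on the 3 control (circles) and 3 deletion (triangles) arrays, for 4 endothelial members (Prox1, Lyve1, Apln, Angpt2) and 4 genes outside the list. Groups overlap in Lyve1, Apln and Angpt2 and separate in Prox1, Nrp2, Nr2f2, Gata2 and Hbb-b2.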

How the data were processed

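Expression was measured on 6 arrays of mouse dental pulp. Per the submitters' processing notes the authors used MAS5, and the deposited values are its linear intensities, one per probe set; software version and build: not given in the sources used here. The authors' signals had a 2% trimmed mean of 500.003 on each array, as found from the values. RNA was amplified before labelling, per the labels' protocols, which can compress differences. MAS5 detection calls were read from the deposited workbook, where column names show only the group, and were therefore summed within groups; 12 other value columns there stayed unused.

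A floor of 1 was put on the signals before conversion to log2. Probe sets with 1 gene symbol in the platform annotation and at least 3 Present calls were kept, the one with the highest mean representing each gene (12250 genes). The comparison used limma 3.58.1 under R 4.3.3 (intensity trend, two-sided, Benjamini-Hochberg over all genes), tested on simulated data. Standard errors, intervals and p-values rest on the spread between 3 arrays a group, which limma moderates with the variance of all genes. The small number of arrays limits precision. Medians and counts over gene lists carry no test. A group with no Present call gives a bound, its signals held at or above the lowest signal of probe sets Present on all arrays of that group. The bound makes no allowance for the spread between arrays. Every member is accounted for, and all 6 signals are printed for the defining, tip cell and lymphatic members and the 3 highest and 3 lowest others; Cldn5 and Emcn were added after their values were seen. Members and lists were chosen with earlier results of these data known.

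Arrays sharing a number had correlated deviations from the group mean (0.485, 0.189 and 0.286 for numbers 1, 2 and 3), although control 3 with deletion 2 gave 0.213 and control 2 with deletion 3 gave 0.117; the other differently numbered pairs were below 0. All same-numbered pairs being above 0.1, the replicate number was used as a block in an alternative fit; the pairing comes from these values, not from a label. Other alternatives changed normalization, low signals, the detection filter, the probe set, the variance model and the arrays used.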

Additional observations from a re-analysis of the deposited data

How the results depend on the processing

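No endothelial gene passed under any of the 17 alternatives, and with the replicate number as a block 0 of 30 passed, the lowest adjusted p being 0.0872 for Vwf; the block changed no call of a member. The lowest adjusted p of a member under any alternative was 0.0747, for Aplnr with array quality weights. The count over all genes was 325, and it was 204 with Present calls on all 6 arrays, 1106 with array quality weights, 1302 with the replicate block, 500 without both replicate 1 arrays and from 94 to 300 with single arrays left out; the cause was not tested. Class medians stayed within the spread between replicates, but the pan-endothelial one changed sign, to -0.0212 with quantile normalization, -0.0514 with array weights and -0.00695 without both replicate 1 arrays. With single arrays left out the medians ran from 0.0137 to 0.19 (pan-endothelial), 0.30 to 0.63 (tip cell) and 0.48 to 1.08 (lymphatic). No lymphatic member was Present on all 6 arrays, so that setting gave no lymphatic median. Differences near 0 changed sign in uncalled members: with quantile normalization Esam (-0.0638), Kdr (-0.0295), Ets1 (-0.0128), Sox7 (-0.12), with arrays centred on Present probe sets Esam (-0.0593), Ets1 (-0.0463), Sox7 (-0.00154). They also did so with the mean of probe sets Flt1 (-0.0514), Ets1 (-0.0743), Lyve1 (-0.21), with array weights Esam (-0.0526), Kdr (-0.12), Ets1 (-0.29), Sox7 (-0.0501), without both replicate 1 arrays Esam (-0.0677), Ecscr (0.0325), Kdr (-0.16), Flt1 (-0.0097), Ptprb (-0.00178), Ets1 (-0.32), Sox7 (-0.0238). With single arrays left out 29 of the 30 members moved by more than 1.5 times: Cdh5 ran from 0.13 to 0.68, Vwf from 0.22 to 0.95, Icam2 from -0.78 to -0.00747, Aplnr from -0.92 to -0.17 and Lyve1 from 0.0416 to 0.83. Those that changed sign ran over Esam -0.0878 to 0.13, Emcn -0.66 to 0.41, Cd34 -0.24 to 0.0555, Ecscr -0.19 to 0.18, Kdr -0.0743 to 0.35. The others that changed sign ran over Tek -0.13 to 0.19, Ptprb -0.0579 to 0.43, Egfl7 -0.0487 to 0.19, Nos3 -0.28 to 0.13, Ets1 -0.37 to 0.38, Sox7 -0.18 to 0.23. Members near detection, Prox1, Tie1, Rasip1, Esm1 and Flt4, are limited by signal over background.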
